A study of Mus musculus with 12 samples.

Results

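Expression of 10 marker genes of the vessel wall and of the brain's coverings was followed in Pdgfra/GFP+ cells. These were 4 pericyte genes (Rgs5, Abcc9, Vtn and Acta2) and 6 leptomeningeal or mesenchymal genes (Lum, Dcn, Foxc1, Foxd1, Twist1 and Tbx18), chosen by name as known markers from 47069 gene identifiers in the table. All 10 were measured and passed the filter on low values. Total RNA-seq was carried out on 12 libraries, 3 for each of brain and spinal cord in embryos at E13.5 and in pups at P7, 7 days after birth. All cells came from Pdgfra-H2BGFP mice, in which a histone-tagged green fluorescent protein is made from the Pdgfra locus. Per the study's methods the animals were heterozygous, on a C57BL/6NJ background and of both sexes, the brain tissue was forebrain, and cells sorted for GFP were pooled over several animals for each library. The protein outlasts Pdgfra RNA, so a sorted cell need not still express the gene. Embryonic tissue was dissociated mechanically and P7 tissue with papain, and at P7 the brightly fluorescent cells were kept. Age therefore cannot be told apart from dissociation and gate. No group of unsorted or GFP-negative cells was analysed here.

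Pericytes are the mural cells that lie against the endothelium of capillaries, and they grade into smooth muscle cells on larger vessels. The leptomeninges are the inner membranes around the brain and spinal cord, built largely by fibroblast-like cells that secrete collagens and proteoglycans and that follow vessels into the tissue. Pdgfra is best known in this tissue as a receptor of oligodendrocyte precursor cells (OPCs), but fibroblast-like cells of the meninges and vessels express it too. In bulk RNA, fewer cells of a type and less RNA per cell cannot be told apart.

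The 10 genes fell into different patterns by region and age. In spinal cord all 10 fell between E13.5 and P7, with Acta2 falling most and Vtn least. In brain the 6 leptomeningeal and mesenchymal genes fell and Abcc9 and Acta2 fell with them, whereas Rgs5 was 2.23-fold higher at P7, a call that was lost in 2 alternatives given below, and Vtn did not pass the test. On the log2(CPM + 0.5) scale, Rgs5 and Acta2 were 8.31-fold and 7.49-fold lower in brain than in spinal cord at E13.5, while Tbx18 was 3.34-fold higher in brain. At P7, Vtn, Foxc1 and Tbx18 were higher in brain.

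The promoters of the 3 genes that differed between regions at E13.5 are shown because they carry the clearest contrast, with Rgs5 and Acta2 on the spinal cord side and Tbx18 on the brain side. Each sequence is the 250 bases before the gene start in RefSeq on GRCm38.p6, written 5′ to 3′ on the gene's strand. In GENCODE M21 the Acta2 gene reaches to 34255590, so most of the Acta2 window lies inside that gene. Capitals mark matches to the CArG box, the motif bound by serum response factor in smooth muscle genes, with 1 base of its A/T core allowed to be G or C. Both strands were searched.
Rgs5 (chr1:169655251-169655500, + strand): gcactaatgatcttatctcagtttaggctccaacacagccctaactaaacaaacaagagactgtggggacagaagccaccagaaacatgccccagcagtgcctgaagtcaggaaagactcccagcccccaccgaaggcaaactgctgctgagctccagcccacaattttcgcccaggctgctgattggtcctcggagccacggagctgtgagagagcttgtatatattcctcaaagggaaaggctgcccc
Acta2 (chr19:34255374-34255623, - strand): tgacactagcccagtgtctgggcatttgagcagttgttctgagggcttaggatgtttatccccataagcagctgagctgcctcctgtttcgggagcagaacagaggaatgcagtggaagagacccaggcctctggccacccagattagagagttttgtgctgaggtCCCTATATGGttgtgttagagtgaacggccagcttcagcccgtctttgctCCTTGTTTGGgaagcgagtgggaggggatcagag
Tbx18 (chr9:87731261-87731510, - strand): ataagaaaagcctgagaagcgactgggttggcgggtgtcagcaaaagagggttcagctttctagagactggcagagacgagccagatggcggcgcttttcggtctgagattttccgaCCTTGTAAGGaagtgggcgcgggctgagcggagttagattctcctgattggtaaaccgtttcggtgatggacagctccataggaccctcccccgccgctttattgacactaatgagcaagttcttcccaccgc

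Of the 10 genes, 8 had a promoter entry. The Acta2 window held 2 such matches, from 84 to 75 and from 34 to 25 bases upstream of the RefSeq start. The Tbx18 window held 1, from 133 to 124 bases upstream. In none of the other 6 windows were these letters found. A match of this kind occurred in 8.59% of 32544 mouse promoters of the same length, and an exact CArG box in 1.48% of them and in none of the 8. The letters TATATA lay 30 to 25 bases before the Rgs5 start, a string found in 5.01% of promoters. These matches describe the sequence only, since binding was not measured.

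Values are read counts scaled to library size (CPM), as the authors deposited them. Recovered reads ranged from 12566345 to 38790312 per library, so that 3 reads corresponded to 0.0792 to 0.506 CPM. E13.5 spinal cord replicate 3 stood apart in composition, with 41.0% of its reads in protein-coding genes against 82.4% to 91.2% in the other libraries. At P7, replicates 1 and 2 of each region were closer to each other than to replicate 3. Their median absolute log2 difference was 0.0673 in brain and 0.0662 in spinal cord, against 0.128 to 0.138 with replicate 3. The median chi-square per gene between replicates 1 and 2 was 1.42 (brain) and 1.74 (spinal cord) times that of counting error alone. With replicate 3 it was 6.77 to 7.47 times. The library sizes behind the deposited P7 brain values were 13.1% to 16.3% larger than those of the trimmed mean of M-values (TMM), a standard scaling to the bulk of genes, so these CPM are lower than under TMM. The scaling moved the median gene of the brain age comparison and of the P7 region comparison from -0.02 under TMM to -0.19 on the log2 scale. Beside the markers below, 9 OPC genes rose together from E13.5, with a summed 1979 CPM for brain and 879 CPM for spinal cord, to P7, with 12256.5 and 11360.4 CPM. All 9 were called higher at P7 in both regions by the limma test given below. Of all tested genes 11.0% were called higher in brain and 16.9% in spinal cord.

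Rgs5 encodes a regulator of G protein signalling and is among the most used markers of brain pericytes. It lies on chromosome 1 from 169655501 to 169695813 on the + strand (GENCODE M21 on GRCm38, ENSMUSG00000026678). Its CPM in replicates 1, 2 and 3 was 6.70, 5.14 and 7.62 for brain at E13.5 and 62.6, 52.3 and 56.2 for spinal cord. The P7 libraries held 12.1, 12.1 and 22.4 for brain and 11.4, 9.19 and 4.56 for spinal cord. The E13.5 spinal cord libraries were above all the others, and every P7 brain library was above every E13.5 brain library. The P7 regions also did not overlap, although their nearest libraries, at 12.1 and 11.4, were close. Differences were tested with limma on log2(CPM + 0.5) over all 18319 genes that reached 0.7 CPM in 3 libraries, and calls needed a Benjamini-Hochberg adjusted p under 0.05 and more than a 2-fold change. In brain Rgs5 rose by 1.16 ± 0.30 (log2, SE; adjusted p = 0.00487), while in spinal cord it fell by 2.78 ± 0.30 (adjusted p = 3.28e-06). The rise in brain was no longer called without P7 brain replicate 3, at 0.87 (adjusted p = 0.0253, under 2-fold), or with a replicate block within each age, at 1.16 (adjusted p = 0.0629).

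Abcc9 encodes a regulatory subunit of ATP-sensitive potassium channels (chromosome 6, 142587862 to 142702315, - strand, ENSMUSG00000030249). Its level at E13.5 was 12.4, 9.71 and 15.7 CPM for the brain libraries against 24.8, 19.7 and 14.7 for those of spinal cord, and at P7 it was 3.30, 2.51 and 5.55 against 3.56, 5.18 and 3.66. All P7 libraries lay below all E13.5 libraries, and the regions overlapped at both ages. Abcc9 fell by 1.65 ± 0.27 in brain (limma adjusted p = 0.000191) and fell by 2.11 ± 0.27 in spinal cord (adjusted p = 1.66e-05). An antisense gene inside its locus, 5330439B14Rik, was at 0 in every library.

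Vtn encodes vitronectin, a secreted adhesive glycoprotein of the extracellular matrix that binds integrins (chromosome 11, 78499091 to 78502324, + strand, ENSMUSG00000017344). Its CPM at E13.5 was 185, 121 and 276 for brain and 221, 233 and 307 for spinal cord. It was 226, 222 and 243 for brain at P7 and 57.8, 57.1 and 112 for spinal cord. P7 spinal cord was thus the one group set below the rest, and the other 3 groups overlapped. Vtn fell by 1.80 ± 0.29 in spinal cord (limma adjusted p = 0.00012). Its difference in brain was 0.32 ± 0.29 (adjusted p = 0.349). Itgav, the integrin alpha subunit shared by vitronectin receptors, rose by 1.46 in brain and by 1.43 in spinal cord. Only in spinal cord was this against a called change of Vtn. The Itgav partner Itgb5 fell by 2.26 in brain and fell by 3.78 in spinal cord. Itgb3, another partner of Itgav, was lower in brain at P7 at -1.28, against Vtn.

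Acta2 encodes smooth muscle alpha-actin, which is carried by arteriolar smooth muscle and by some pericytes (chromosome 19, 34241090 to 34255590, - strand, ENSMUSG00000035783). Its level at E13.5 was 4.09, 2.77 and 4.40 CPM for the brain libraries against 27.9, 25.7 and 41.0 for those of spinal cord, and at P7 it was 0.33, 0.33 and 0.95 against 0.62, 0.56 and 0.34. The P7 values rested on 10 to 36 reads per library in brain and 11 to 23 in spinal cord, and the P7 regions overlapped. Acta2 fell by 2.06 ± 0.26 in brain (limma adjusted p = 2.08e-05) and fell by 4.97 ± 0.26 in spinal cord (adjusted p = 5.36e-09). On this scale a fall to such low levels is understated.

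**Figure D1:**
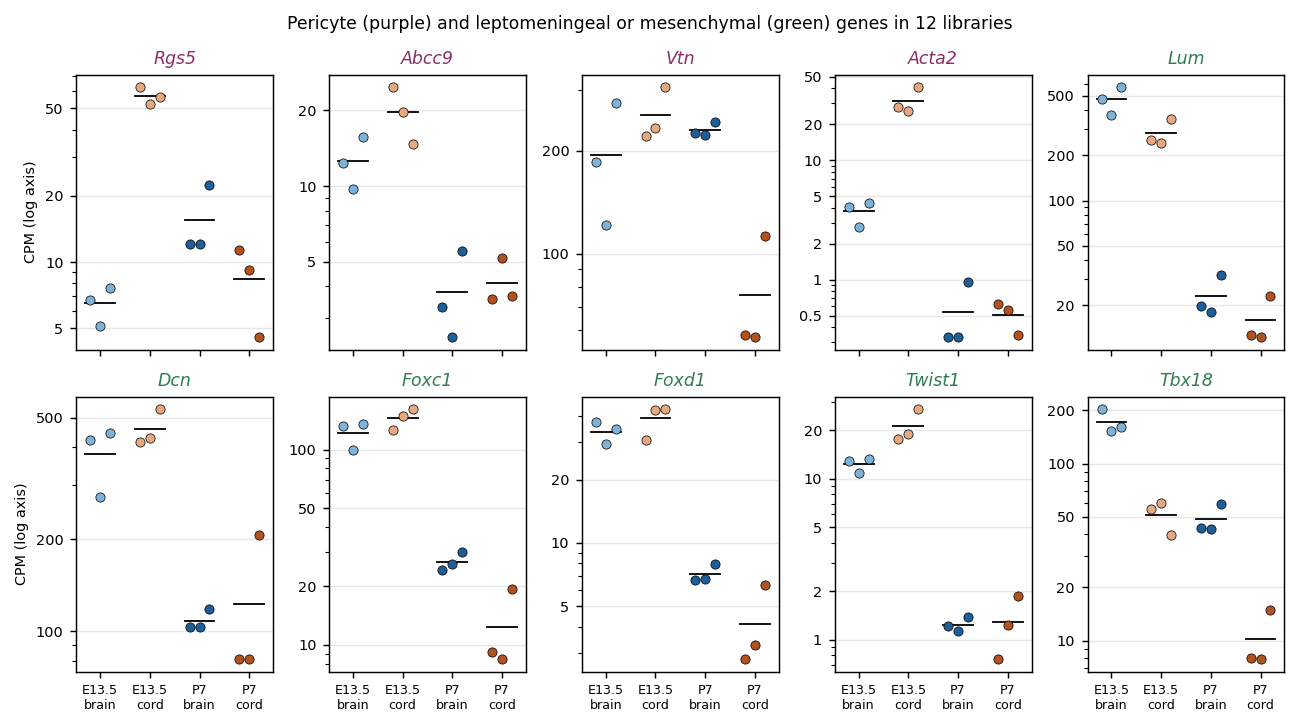
CPM of each of the 10 genes on log axes in the 12 libraries, 1 point per library and a line at the group mean, with pericyte genes in purple and leptomeningeal or mesenchymal genes in green. Rgs5 and Acta2 are highest in E13.5 spinal cord, Lum and Tbx18 in E13.5 brain, and P7 spinal cord replicate 3 sits above replicates 1 and 2 for all 6 green genes.

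Lum and Dcn encode lumican and decorin, small leucine-rich proteoglycans that bind collagen fibrils and mark fibroblasts of the meninges. They are neighbours on the + strand of chromosome 10, with Dcn (ENSMUSG00000019929) at 97479609 to 97518143 and Lum (ENSMUSG00000036446) 47.0 kb further on at 97565128 to 97572703. The Lum CPM at E13.5 was 478, 372 and 572 for brain and 254, 241 and 351 for spinal cord. It was 19.9, 18.0 and 31.8 for brain at P7 and 12.8, 12.3 and 23.2 for spinal cord. At E13.5 every brain library was above every spinal cord library, and at P7 the regions overlapped through P7 spinal cord replicate 3. Lum fell by 4.34 ± 0.27 in brain (limma adjusted p = 3.67e-08), the largest fall of the 10 genes there, and fell by 4.13 ± 0.27 in spinal cord (adjusted p = 3.27e-08). The Dcn level at E13.5 was 421, 275 and 445 CPM for the brain libraries against 417, 430 and 533 for those of spinal cord, and at P7 it was 103, 103 and 118 against 80.9, 81.2 and 207. The regions of Dcn overlapped at both ages, and P7 spinal cord replicate 3 alone placed its group mean above that of P7 brain. Dcn fell by 1.78 ± 0.30 in brain (adjusted p = 0.000251) and fell by 2.04 ± 0.30 in spinal cord (adjusted p = 6.12e-05). Kera, a proteoglycan gene next to Lum, was at no more than 7 reads in any library and was not tested.

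Foxc1 and Foxd1 are forkhead transcription factors, the former required for normal meningeal development and the latter known from stromal mesenchyme. Both lie on the + strand of chromosome 13, Foxc1 (ENSMUSG00000050295) at 31806633 to 31812476 and Foxd1 (ENSMUSG00000078302) at 98354242 to 98359305. The Foxc1 CPM at E13.5 was 131, 99.3 and 135 for brain and 126, 148 and 161 for spinal cord. It was 24.2, 25.9 and 29.8 for brain at P7 and 9.18, 8.45 and 19.3 for spinal cord. The Foxd1 level at E13.5 was 37.4, 29.4 and 34.6 CPM for the brain libraries against 30.9, 43.0 and 43.2 for those of spinal cord, and at P7 it was 6.66, 6.71 and 7.95 against 2.81, 3.27 and 6.30. For both genes the regions overlapped at E13.5 and were set apart at P7 with brain above. Foxc1 fell by 2.16 ± 0.24 in brain (limma adjusted p = 7.99e-06) and fell by 3.60 ± 0.24 in spinal cord (adjusted p = 5.26e-08). Foxd1 fell by 2.17 ± 0.23 in brain (adjusted p = 4.93e-06) and fell by 3.15 ± 0.23 in spinal cord (adjusted p = 1.06e-07).

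Twist1 encodes a basic helix-loop-helix factor of mesenchyme (chromosome 12, 33957671 to 33959829, + strand, ENSMUSG00000035799). Its CPM at E13.5 was 12.9, 10.8 and 13.1 for brain and 17.7, 18.9 and 27.0 for spinal cord. It was 1.21, 1.12 and 1.37 for brain at P7 and 0.76, 1.23 and 1.86 for spinal cord. Spinal cord was above brain in every library at E13.5, and at P7 the regions overlapped at 28 to 60 reads. Twist1 fell by 2.88 ± 0.22 in brain (limma adjusted p = 2.80e-07) and fell by 3.63 ± 0.22 in spinal cord (adjusted p = 2.17e-08).

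Tbx18 encodes a T-box factor that is used to label mural cells as well as mesenchyme (chromosome 9, 87702800 to 87731260, - strand, ENSMUSG00000032419). Its level at E13.5 was 203, 152 and 162 CPM for the brain libraries against 55.3, 59.9 and 39.6 for those of spinal cord, and at P7 it was 43.1, 42.9 and 59.1 against 7.94, 7.87 and 14.8. It was the one gene of the 10 with brain called above spinal cord at both ages, with no overlap at either. It fell by 1.83 ± 0.23 in brain with age (limma adjusted p = 2.36e-05) and fell by 2.32 ± 0.23 in spinal cord (adjusted p = 1.87e-06). D030062O11Rik overlaps its start on the other strand and held at most 0.75 CPM.

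**Figure D2:**
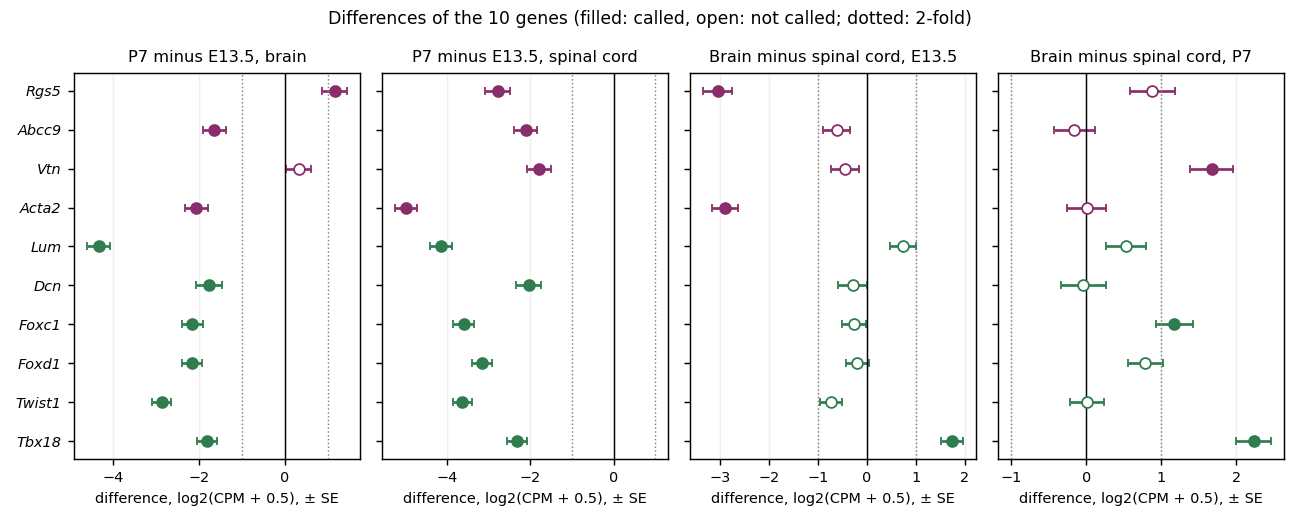
Differences of the 10 genes on the log2(CPM + 0.5) scale in 4 comparisons, with SE bars, filled points where the gene was called and dotted lines at 2-fold. All 10 points lie left of 0 for age in spinal cord, and Rgs5 is the one filled point right of 0 for age in brain.

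By age, 9 of the 10 genes were called in brain, 1 higher and 8 lower, where 27.7% of all tested genes were called (11.0% higher and 16.7% lower). In spinal cord 10 of 10 were called lower, where 35.1% of genes were called, 16.9% higher and 18.2% lower. The same 9 and 10 genes had no overlap between their E13.5 and P7 libraries. The share of all tested genes without overlap was not counted, so this is description and adds nothing to the calls. The median difference over the 10 genes was -1.95 in brain and -2.97 in spinal cord, beside -0.19 and 0.12 over all tested genes. The 4 pericyte genes had a median of -0.66 in brain and -2.45 in spinal cord, and the 6 leptomeningeal and mesenchymal genes one of -2.17 and -3.37.

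By region at E13.5, 3 of 10 genes were called, where 8.71% of all tested genes were (3.53% higher in brain and 5.17% lower). Rgs5 was lower in brain, with a log2 difference of -3.05 ± 0.30 (limma adjusted p = 1.03e-05) as was Acta2, at -2.91 ± 0.26 (adjusted p = 5.14e-06), and Tbx18 was higher by 1.74 ± 0.23 (adjusted p = 0.000133). Lum, at 0.75 ± 0.27 (adjusted p = 0.0493), and Twist1, at -0.74 ± 0.22 (adjusted p = 0.0229), passed on p but were under 2-fold. The other 5 genes overlapped between regions. Their differences ran from -0.62 ± 0.27 for Abcc9 (adjusted p = 0.0997) to -0.19 ± 0.23 for Foxd1 (adjusted p = 0.563). The same 3 genes were called without E13.5 spinal cord replicate 3, at -3.06, -2.70 and 1.56 for Rgs5, Acta2 and Tbx18.

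By region at P7, 3 of 10 genes were called, all higher in brain, where 6.62% of all tested genes were called, 2.27% higher and 4.35% lower. Tbx18 was higher by 2.23 ± 0.23 (limma adjusted p = 2.67e-05), Vtn by 1.67 ± 0.29 (adjusted p = 0.00111) and Foxc1 by 1.18 ± 0.24 (adjusted p = 0.00355). Rgs5, at 0.88 ± 0.30 (adjusted p = 0.042), and Foxd1, at 0.79 ± 0.23 (adjusted p = 0.0228), passed on p but were under 2-fold, and both were called in the count models edgeR, limma-voom and DESeq2, which gave 5 called genes. Rgs5 was called under TMM scaling too, at 1.07, but stood at 0.52 (limma adjusted p = 0.158) without P7 spinal cord replicate 3 and at 0.59 (adjusted p = 0.172) without P7 brain replicate 3. Foxc1 was no longer called without P7 spinal cord replicate 2, at 0.97 (adjusted p = 0.0197, under 2-fold). Lum stood at 0.53 ± 0.27 (adjusted p = 0.157). Abcc9, Acta2, Dcn and Twist1 had differences between -0.16 and 0.01, with SEs of 0.22 to 0.30, and their directions changed with the scaling, pseudocount or library left out.

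The region difference itself changed with age for 4 genes, where 16.3% of all tested genes were called, 6.66% higher and 9.66% lower. Brain minus spinal cord rose between the ages by 3.94 ± 0.42 for Rgs5 (limma adjusted p = 2.79e-05), by 2.91 ± 0.37 for Acta2 (adjusted p = 9.25e-05), by 2.12 ± 0.41 for Vtn (adjusted p = 0.00153) and by 1.43 ± 0.35 for Foxc1 (adjusted p = 0.00614). For Rgs5 a difference of -3.05 at E13.5 stood beside one of 0.88 at P7 that was not called, and for Acta2 a difference of -2.91 ended at 0.00 with few reads behind it. Vtn and Foxc1 went from overlapping regions to higher levels in brain. For Foxd1 the change was 0.98 ± 0.33 (adjusted p = 0.0319, under 2-fold). It was called at 1.16 with TMM, 1.27 with median-ratio scaling, 1.25 with edgeR, 1.33 with limma-voom and 1.32 with DESeq2. The other 5 genes did not pass, and the change for Tbx18 was 0.49 ± 0.33 (adjusted p = 0.258).

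**Figure D3:**
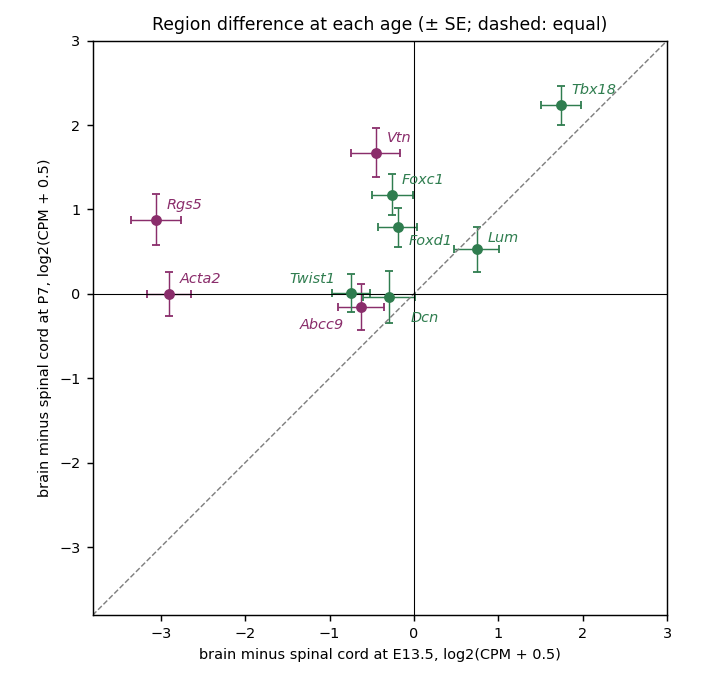
Brain minus spinal cord at E13.5 (horizontal) against the same at P7 (vertical) for the 10 genes, in log2(CPM + 0.5) with SE bars and a dashed line of equal values. Rgs5 (-3.05, 0.88) and Acta2 (-2.91, 0.00) lie farthest above the dashed line, and Lum (0.75, 0.53) is the one point below it.

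Levels were compared between genes only per kilobase of exon. In E13.5 brain the order ran from Lum at 194 ± 40.8 CPM per kb (SD, n = 3) through Vtn at 95.6 ± 38.2 and Dcn at 65.2 ± 15.7, which overlapped, to Tbx18 at 36.6 and Foxc1 at 20.8. Twist1 at 7.55 and Foxd1 at 6.68 followed and overlapped. Acta2 at 1.71, Abcc9 at 1.5 and Rgs5 at 1.43 came last with overlapping ranges, so that 3 of the 4 pericyte genes were below all 6 leptomeningeal and mesenchymal genes. In E13.5 spinal cord Vtn at 125 and Lum at 115 overlapped at the top, above Dcn at 78.7 and Foxc1 at 24.8. Acta2 at 14.4, Twist1 at 13.0, Rgs5 at 12.5, Tbx18 at 10.9 and Foxd1 at 7.71 formed a run in which each overlapped the next, and Abcc9 was lowest at 2.35. Rgs5 and Acta2 thus lay among the transcription factors there.

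At P7 Vtn was first in both regions. It stood at 113 CPM per kb in brain, clear of Dcn at 18.5, and at 37.3 in spinal cord, where it overlapped Dcn at 21.1. In P7 brain Tbx18 at 10.3 and Lum at 9.49 overlapped, as did Foxc1 at 4.56 and Rgs5 at 3.42. Foxd1 at 1.40, Twist1 at 0.759, Abcc9 at 0.452 and Acta2 at 0.245 came below, and the last pair overlapped. In P7 spinal cord Lum at 6.58 came next. From Tbx18 at 2.16 through Foxc1 at 2.11, Rgs5 at 1.84, Foxd1 at 0.815 and Twist1 at 0.789 to Abcc9 at 0.494 each gene overlapped the next, and Acta2 at 0.230 lay below.

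The balance of the pericyte and the leptomeningeal genes was followed as a ratio of their summed CPM in each library, which is not per length and is read only between libraries. At E13.5 the pericyte sum was 217 ± 82.6 CPM (SD, n = 3) for brain and 362 ± 49.3 for spinal cord, and at P7 it was 250.1 ± 19.3 and 88.8 ± 27.9. The leptomeningeal and mesenchymal sum was 1195 ± 225 and 999 ± 137 at E13.5 and 215 ± 28.9 and 167 ± 91.3 at P7. The ratio at E13.5 was 0.162, 0.148 and 0.223 for brain and 0.374, 0.352 and 0.363 for spinal cord. At P7 it was 1.22, 1.20 and 1.10 in brain and 0.641, 0.630 and 0.444 in spinal cord. In this ratio the 4 groups did not overlap, with E13.5 brain lowest and P7 brain highest. Lum and Dcn made up most of the leptomeningeal and mesenchymal sum. Their mean share was 71.2% for brain and 74.1% for spinal cord at E13.5, and 61.2% and 82.7% at P7. With genes weighted equally, the mean log2 level of pericyte genes minus that of the others was -2.74 for E13.5 brain and -0.81 for E13.5 spinal cord. At P7 it was -0.77 and -0.58. There E13.5 brain was still lowest, but the other 3 groups overlapped.

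Vtn made up most of the pericyte sum, on average 89.0% for brain and 69.8% for spinal cord at E13.5, and 92.2% and 83.7% at P7. With Rgs5, Abcc9 and Acta2 alone the ratio at E13.5 was 0.0180, 0.0187 and 0.0203 for brain and 0.128, 0.104 and 0.0969 for spinal cord. It was 0.0790, 0.0758 and 0.117 for brain at P7 and 0.136, 0.131 and 0.0314 for spinal cord. Without Vtn, E13.5 brain was still below every other library, P7 brain included, and the other 3 groups overlapped. The place of P7 brain above both spinal cord groups was thus seen only with Vtn in the sum. This sum without Vtn was added after the values had been seen.

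The wider pericyte set was read from 15 further genes, of which 12 passed the filter on low values. Higd1b, Art3 and Cox4i2, which are markers of mature brain pericytes, did not, and held at most 14, 12 and 7 reads in any library. In brain 1 rose and 7 fell, and in spinal cord 2 rose and 8 fell. Of all tested genes 11.0% rose and 16.7% fell in brain, and 16.9% rose and 18.2% fell in spinal cord. The median difference was -1.38 and -2.46 beside -0.19 and 0.12 over all tested genes. Kcnj8, Ndufa4l2, Steap4 and Atp13a5 were not called in brain. Mean Atp13a5 was 2.03 CPM for brain and 17.3 CPM for spinal cord at E13.5, and 3.86 and 3.27 CPM at P7. Pdgfrb, the receptor that recruits pericytes, fell by 1.92 in brain and fell by 3.19 in spinal cord, from 157 to 41.4 CPM and from 208 to 23.9 CPM. Ebf1, a transcription factor, fell by 4.24 in brain and fell by 4.02 in spinal cord. Cspg4 rose by 2.69 and 3.73 and is also a defining gene of OPCs. Mcam, an adhesion molecule of vessel walls, fell by 1.19 in brain and rose by 2.83 in spinal cord. Kcnj8, which encodes the pore subunit that pairs with Abcc9 and lies 16.2 kb from it, had a mean of 1.44 CPM in brain and 5.25 CPM in spinal cord at E13.5 and of 0.521 and 0.751 CPM at P7, and fell by 2.18 in spinal cord. Rgs4, another regulator of G protein signalling 45.7 kb from Rgs5, had brain minus spinal cord at -1.90 at E13.5 and at 1.42 at P7, both called, the same signs as Rgs5. Rgs16, a further gene of this family, had the opposite signs, at 0.78 at E13.5 (not called) and -1.91 at P7 (called).

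Acta2 was set beside 10 further smooth muscle genes, 8 of which passed the filter on low values. In brain 5 fell and none rose, and in spinal cord 7 fell and none rose. Over all tested genes 16.7% fell in brain and 18.2% in spinal cord. Synpo2, an actin-binding protein of muscle, fell by 4.32 in brain and fell by 5.89 in spinal cord, and Mylk, the myosin light chain kinase, fell by 2.20 and fell by 3.09. At E13.5 3 of the 8 were lower in brain and none higher, led by Synpo2 at -1.74. Over all tested genes 5.17% were lower in brain at that age. Tagln and Tpm2 differed by -0.22 and 0.15 there and were not called. The summed level of the list at E13.5 was 109 to 145 CPM for brain and 186 to 263 for spinal cord, and at P7 it was 18.4 to 25.4 and 14.7 to 26.3.

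Among 15 further leptomeningeal and fibroblast genes, all tested, 4 rose and 7 fell in brain and 2 rose and 10 fell in spinal cord. Their medians were -0.52 and -2.61. Over all tested genes 11.0% rose and 16.7% fell in brain, and 16.9% rose and 18.2% fell in spinal cord. Col3a1, a fibrillar collagen and the most abundant of them, fell by 3.38 in brain and fell by 3.05 in spinal cord. Ptgds, a prostaglandin synthase of mature leptomeninges, rose by 5.54 in brain and had a difference of 0.75 in spinal cord that was not called. Mgp, a matrix protein that binds calcium, rose by 3.07 and 2.61, and Slc47a1, a solute transporter, rose by 3.41 and 2.34. Slc13a3, a dicarboxylate transporter, rose by 3.84 in brain and had a difference of 0.75 in spinal cord that was not called. At E13.5 10 of the 15 were lower in brain and none higher, with a median of -1.19, whereas of the 6 leptomeningeal and mesenchymal genes followed here none was called lower and Tbx18 was called higher. At P7 6 were higher in brain and 2 lower. Over all tested genes, 5.17% were lower in brain at E13.5, and 2.27% were higher and 4.35% lower at P7. The region difference changed towards brain for 9 of the 15, beside 6.66% of all tested genes.

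The 12 further mesenchymal transcription factors included 11 that were tested, of which none rose, 7 fell in brain and 9 fell in spinal cord. Over all tested genes 16.7% fell in brain and 18.2% in spinal cord. Prrx1, the most abundant at 104 CPM for brain and 118 CPM for spinal cord at E13.5, fell by 1.64 in spinal cord and had a difference of -0.92 in brain that was not called. At E13.5 Tbx15 was higher in brain by 2.89, as its relative Tbx18 was, and Prrx2 by 1.48. The other 4 called were lower in brain, Meox2 at -4.21, from 0.771 CPM in brain against 22.7 CPM in spinal cord, Foxc2 at -1.91, Twist2 at -1.70 and Meox1 at -1.48. Over all tested genes 3.53% were higher in brain at E13.5 and 5.17% lower. At P7 Snai2 was lower in brain, at -1.09. Osr1, a zinc finger factor, fell by 2.89 in brain and fell by 4.15 in spinal cord. Among 8 tested small leucine-rich proteoglycans, 1 rose and 4 fell in brain and 4 fell in spinal cord. The 1 rise was near the 11.0% of all tested genes that rose in brain. Bgn, the biglycan gene, fell by 1.46 in brain and fell by 2.19 in spinal cord. Prelp, a proteoglycan of basement membranes, rose by 2.23 in brain, against Lum and Dcn. Fmod, the fibromodulin gene, was lower in brain at E13.5, at -2.05, and higher there at P7, at 1.43.

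Markers of other cell types moved with some of these results, and their part in them was not tested. Over 10 endothelial genes, the summed level at E13.5 was 60.7 to 101 CPM for brain and 127 to 159.6 for spinal cord, and at P7 it was 33.2 to 43.9 and 29.0 to 35.3. Cdh5 was the most abundant of them and weighed heavily in this sum, with means of 29.6 CPM for brain and 77.7 for spinal cord at E13.5. At E13.5 4 of the 10 were lower in brain, in the direction of Rgs5 and Acta2, and 1, Kdr, was higher. Over all tested genes 5.17% were lower in brain at E13.5 and 3.53% higher. With age 1 rose and 2 fell in brain, a share near the 27.7% of all tested genes, and none rose and 8 fell in spinal cord, beside 18.2% of all genes called lower. Over 10 microglia and macrophage genes the sum was 32.2 to 72.1 CPM in P7 brain and 5.37 to 15.2 in P7 spinal cord, and 9 of the 9 tested were higher in brain at P7, in the direction of Vtn, Foxc1 and Tbx18. Over all tested genes 2.27% were higher in brain at P7. No gene of the endothelial or the microglia list was at 0 in any library. Aif1, a microglial marker, was not tested. Of 7 erythroid genes, the 4 adult globin genes were higher in brain at P7, and the embryonic globin Hbb-y was at 0 in all P7 libraries.

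The P7 replicates differed in several of these markers. In P7 spinal cord, replicate 3 exceeded the mean of replicates 1 and 2 for all 6 leptomeningeal and mesenchymal genes, from 1.85-fold for Lum to 2.55-fold for Dcn, and 2.38-fold for their sum. The 15 further leptomeningeal and fibroblast genes were all above 1 too, with a summed ratio of 2.12. Vtn went with them at 1.96-fold, whereas Rgs5 was at 0.444, Acta2 at 0.580 and Abcc9 at 0.837 of that mean, with 11 reads behind Acta2. The other mural genes did not all share this direction. The smooth muscle sum was at 1.77, with 6 of the 10 genes above 1 and 4 below. The sum of the 15 further pericyte genes was at 1.12, with 8 of the 15 above 1 and 7 below, and Pdgfrb was at 2.13. In the same library the microglia sum was at 0.359, with all 10 genes below 1. The endothelial sum was at 0.840, with 8 of the 10 genes below 1 and 2 above, of which Cdh5, the most abundant, was at 1.60. The OPC sum was at 1.01 and the median gene at 0.984. In P7 brain all 10 genes were above 1 in replicate 3, from 1.09 for Vtn to 2.86 for Acta2, while the microglia sum was at 2.22 and the endothelial sum at 1.27. Without P7 spinal cord replicate 3 the P7 region differences were 1.99 for Vtn, 1.54 for Foxc1, 1.10 for Foxd1 and 2.52 for Tbx18, all 4 called, and 0.52 for Rgs5 (limma adjusted p = 0.158).

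**Figure D4:**
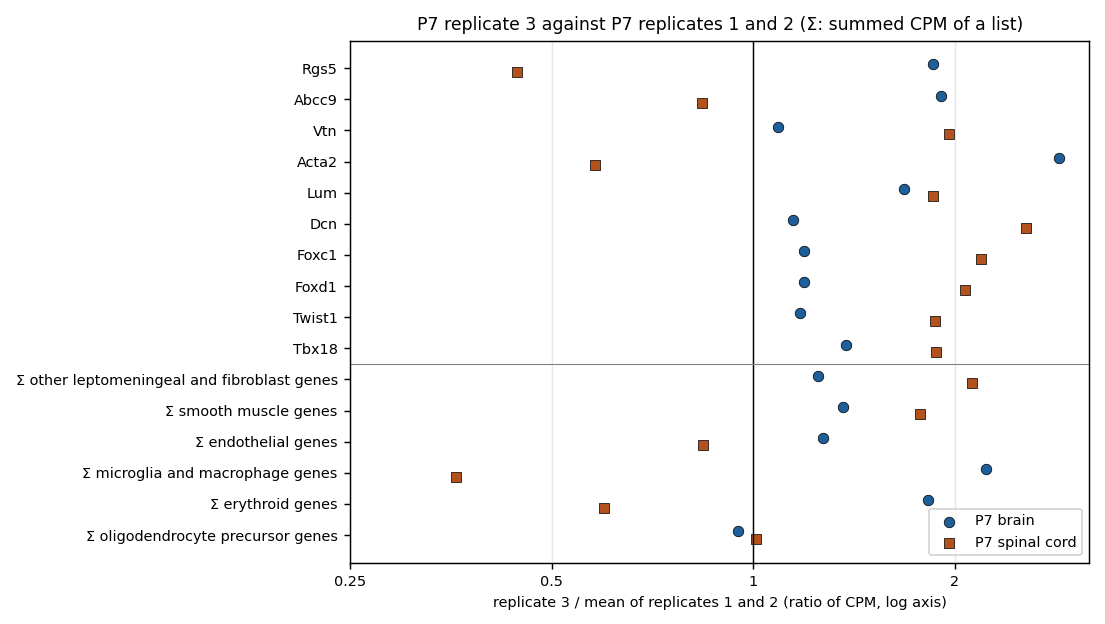
Ratio of P7 replicate 3 to the mean of P7 replicates 1 and 2 on a log axis, for the 10 genes and for the summed CPM of 6 other lists, with circles for brain and squares for spinal cord. In spinal cord the leptomeningeal genes and Vtn lie near 2 and the smooth muscle sum at 1.77, and Rgs5, Acta2 and the microglia sum lie below 1. Of the 10 smooth muscle genes behind that sum, 6 were above 1 and 4 below.

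Likeness across the 12 libraries was described by Pearson's r of log2(CPM + 0.5) with 14180 tested protein-coding genes. These correlations share the 4 group means and carry no test. Foxc1 and Foxd1 were each other's closest gene (r = 0.995), although they lie far apart on their chromosome. Closest to Twist1 was Trip6 (r = 0.997), to Lum Cnn2 (r = 0.996) and to Dcn Kdelr3 (r = 0.992). The gene closest to Acta2 was Casz1 (r = 0.993), to Tbx18 C1qtnf7 (r = 0.986), to Abcc9 Ep300 (r = 0.976), to Vtn Cmbl (r = 0.971) and to Rgs5 Pitpnm2 (r = 0.956). Among the 3 closest, Tbx18 also had Tbx15 (r = 0.956) and Foxc1 had Bgn (r = 0.994). None of the 4 pericyte genes had another of the 4, or one of the 15 further pericyte genes, among its 3 closest. With only 3 of 14180 genes listed for each, this absence says little about whether the pericyte genes varied together.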

How the data were processed

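Total RNA was measured in 12 libraries of GFP-sorted cells. Groups and replicate numbers came from the sample titles, which do not say whether replicates came from separate litters. P-values thus measure the spread between these libraries. If P7 replicates 1 and 2 are not independent pools, SEs and p-values that use P7 libraries are too small. Averaging these 2 libraries in each region left the number of members called in each comparison unchanged. Per the study's methods and the submitters' processing notes, reads were aligned with STAR 2.5.0a to mm10 and counted over GENCODE M8 genes with featureCounts 1.5.0-p1. Whether counting used strand is not given in the sources used here. The authors deposited CPM values, counts divided by a rescaled library size. In 3 of the 12 columns the sum exceeds what plain CPM allows, so these deposited values were treated as a scaled signal on the CPM scale. In every column 100.0% of values were whole multiples of 1 read within 0.001 reads, so reads were recovered. No sample column was left out (0).

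The filter kept the 18319 genes that reached 0.7 CPM in 3 or more libraries. limma 3.58.1 with an intensity trend was fitted on log2(CPM + 0.5) in R 4.3.3 with 1 mean per group over all libraries, and 5 contrasts were drawn. Genes were called at a Benjamini-Hochberg adjusted p under 0.05 and more than 2-fold. Fold changes on this scale are understated for low genes. Alternatives were pseudocounts of 0.1 and 1, no filter, TMM and median-ratio scaling, the count tests edgeR 4.0.16 (the quasi-likelihood test), limma-voom and DESeq2 1.42.0 on recovered reads, a replicate block, averaging P7 replicates 1 and 2, and leaving out each library. edgeR called 5989 genes for age in brain against 5068 by limma. On simulated counts for age in brain, limma recovered 182 and edgeR 181 of 200 genes changed 4-fold among 18319. These counts were scaled to the library totals they were drawn with. The check thus did not cover the scaling offset of the P7 brain values. The floor of 3 reads covers counting error only, and SDs and SEs the spread between libraries.

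The rule for named genes was the 10 genes, at most 4 genes of each marker list (the most abundant, and any that moved against the rest), and the genes closest to each member by Pearson's r. It was not kept in every list, and some genes that met it are not named. Further ones were named after their values were seen (Kcnj8, Rgs4, Itgb5, Higd1b, Art3, Cox4i2, Ndufa4l2, Steap4, Atp13a5, Tagln, Kera, Aif1, Meox1, Meox2, Foxc2, Twist2). The members and the lists were chosen with earlier results of these data known. Gene positions and exon lengths came from GENCODE M21, promoters from RefSeq on GRCm38.p6.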

Additional observations from a re-analysis of the deposited data

Results flagged for a closer look

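The region difference changed between E13.5 and P7 for 4 of the 10 genes, by the test of the difference itself (limma, adjusted over all tested genes). Brain minus spinal cord rose by 3.94 on the log2 scale for Rgs5, by 2.91 for Acta2, by 2.12 for Vtn and by 1.43 for Foxc1. Over all 18319 tested genes 16.3% were called in this comparison. Foxd1 was called too with TMM and median-ratio scaling and in the count tests. The groups of 3 libraries were too small for a test of single outlying libraries.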

How the results depend on the processing

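Across 23 alternatives, 1101 of 1150 member values kept their direction and their side of the threshold, 3 lost a call, 21 gained one and 25 changed sign. The number of members called at P7 between regions was 5 with edgeR, limma-voom and DESeq2, with Rgs5 and Foxd1 added, against 3. For the change of region difference it was 5 with TMM, median-ratio scaling, edgeR and limma-voom, with Foxd1 added, against 4. DESeq2 gave 6 there, with Twist1 too. With each library left out in turn, members called ranged from 8 to 9 for age in brain, 10 to 10 for age in spinal cord, 3 to 3 for region at E13.5, 2 to 4 for region at P7 and 4 to 5 for the change of region difference. The genes called over the whole table ranged from 4952 to 5113, 6305 to 7045, 1541 to 1802, 1146 to 1291 and 2796 to 3817 in the same order. Rgs5 lost its call for age in brain without P7 brain replicate 3 (0.87), and Foxc1 lost its call between P7 regions without P7 spinal cord replicate 2 (0.97). Rgs5 gained one there without P7 spinal cord replicate 1 (1.14) and Foxd1 without replicate 3 (1.10).

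All sign changes were of small differences that were not called. Between P7 regions, Acta2 turned to -0.030 with a pseudocount of 0.1 and ranged from -0.26 to 0.14 with a library left out. Twist1 turned to -0.0033 with a pseudocount of 1 and -0.088 with P7 replicates 1 and 2 averaged, and ranged from -0.22 to 0.23 with a library left out. Abcc9 turned to 0.011 with TMM, 0.043 with median-ratio scaling, 0.11 with edgeR, 0.075 with limma-voom, 0.11 with DESeq2 and 0.011 with P7 replicates averaged, and ranged from -0.44 to 0.066 with a library left out. Dcn turned to 0.15, 0.19, 0.033, 0.18 and 0.044 with the same 5 settings (TMM to DESeq2) and ranged from -0.26 to 0.41. For the change of region difference, Lum turned to 0.092 with median-ratio scaling, 0.043 with edgeR, 0.10 with limma-voom and 0.10 with DESeq2, and ranged from -0.46 to 0.073. The libraries that turned a sign when left out were P7 brain replicates 2 and 3 and P7 spinal cord replicates 1 and 3. The cause was not tested.

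Another scaling moved the split of all calls. The share called higher was 39.7%, 34.3% and 40.8% for age in brain, region at P7 and change of region difference, 49.1%, 46.6% and 54.9% with TMM, and 50.1%, 49.2% and 63.8% with median-ratio scaling.

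Brain and spinal cord libraries with the same number deviated together with r of 0.31, 0.08 and 0.41 at E13.5. At P7 r was 0.01, 0.02 and 0.04. With the other numbers the mean r was -0.05, 0.01 and -0.35 at E13.5 and -0.004, 0.003 and -0.03 at P7. At E13.5 the r with the same number was above that with the others, by little for replicate 2 (0.08 against 0.01). Each group was centred on its own mean, so a higher same-number r lowers the other-number r. The r of 0.41 includes E13.5 spinal cord replicate 3, which stood apart in composition. The titles do not say whether equal numbers mark the same pool, and the main fit did not pair them. Fitted with a replicate block, 9, 10, 3, 3 and 4 members were called, and with a replicate block within each age 8, 10, 3, 3 and 4, where Rgs5 for age in brain was no longer called (1.16, limma adjusted p = 0.0629). Depth limits Acta2 at P7, which rested on 10 to 36 reads per library.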
